A study of Homo sapiens with 12 samples.

Results

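Chaperones of the heat shock families and of the endoplasmic reticulum (ER) were followed across 12 RNA sequencing libraries of PC9 cells. The set held 40 genes of the 62754 in the deposited count table, chosen by symbol and found by Ensembl identifier, and all 40 passed the filter on low counts that left 17115 genes for testing. Of these, 19 are called cytosolic here, although HSPA9, HSPD1 and HSPE1 work in mitochondria and HSF1 is a transcription factor, and 21 belong to the ER. PC9 is a human lung adenocarcinoma line that depends on mutant EGFR. The groups were untreated cells wild type for TDP1 (untreated WT), the same cells kept in erlotinib at 1 µM for 7 days (DTC, drug-tolerant cells) or for 28 days (DTEC, drug-tolerant expanded cells), and the untreated TDP1 knockout KO2 (KO). Erlotinib inhibits the EGFR kinase, and TDP1 is an enzyme that removes trapped topoisomerase I from DNA. Each group had 3 libraries. The labels give no day for the untreated cultures, so the drug and the time in culture cannot be told apart. The cells came from a subclonal line, the cultures were split from a common flask and then grown apart, and KO was represented by 1 knockout line, so p-values measure the spread between these cultures.

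Heat shock proteins bind unfolded polypeptides and help them to fold, and many are made in excess when HSF1 is released by protein damage. The HSP90 and HSP70 families use ATP, J proteins (the DNAJ genes) and nucleotide exchange factors drive HSP70, and small heat shock proteins hold unfolded proteins without ATP. The ER has its own HSP70 (HSPA5, also called BiP) and HSP90 (HSP90B1, GRP94), with disulfide isomerases and the lectin chaperones CALR and CANX. When unfolded proteins build up there, the sensors ERN1 (IRE1), ATF6 and PERK start the unfolded protein response. ERN1 splices the XBP1 transcript, and spliced XBP1 and cleaved ATF6 raise ER chaperone genes. Gene totals as used here do not separate spliced from unspliced XBP1.

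The upstream sequences of 5 members are shown because these genes carry the contrasts described below. HSPA5, HSP90B1 and XBP1 were lower after 7 days than after 28 days, HERPUD1 rose at both times, and HSPA8 fell at both times. Each line gives the 250 bases before the RefSeq transcription start, 5′ to 3′ on the gene's strand (GRCh38.p14). GENCODE 29 gives earlier starts for HSP90B1, XBP1, HERPUD1 and HSPA8. Capitals mark matches, on either strand, to the motifs spelled out next. The genes themselves lie, on GRCh38, at chromosome 9, 125234853 to 125241330 (HSPA5, ENSG00000044574), chromosome 12, 103930107 to 103953645 (HSP90B1, ENSG00000166598), chromosome 22, 28794555 to 28800597 (XBP1, ENSG00000100219), chromosome 16, 56932048 to 56944863 (HERPUD1, ENSG00000051108) and chromosome 11, 123057489 to 123063230 (HSPA8, ENSG00000109971).
HSPA5 (chr9:125241344-125241593, minus strand): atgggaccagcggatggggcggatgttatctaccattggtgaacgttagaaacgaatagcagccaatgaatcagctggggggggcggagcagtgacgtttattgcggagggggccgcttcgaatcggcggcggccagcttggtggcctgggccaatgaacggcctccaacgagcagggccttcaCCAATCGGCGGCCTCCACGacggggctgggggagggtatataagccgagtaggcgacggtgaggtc
HSP90B1 (chr12:103930160-103930409, plus strand): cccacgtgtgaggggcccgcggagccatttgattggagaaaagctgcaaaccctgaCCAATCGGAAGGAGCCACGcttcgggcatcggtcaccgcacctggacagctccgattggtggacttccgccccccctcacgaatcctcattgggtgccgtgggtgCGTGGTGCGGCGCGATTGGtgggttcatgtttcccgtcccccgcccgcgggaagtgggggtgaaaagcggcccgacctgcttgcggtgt
XBP1 (chr22:28800570-28800819, minus strand): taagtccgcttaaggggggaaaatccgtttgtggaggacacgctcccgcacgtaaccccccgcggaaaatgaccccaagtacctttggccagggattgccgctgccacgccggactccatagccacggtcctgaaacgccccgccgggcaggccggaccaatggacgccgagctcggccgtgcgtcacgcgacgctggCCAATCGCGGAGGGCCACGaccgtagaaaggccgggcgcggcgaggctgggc
HERPUD1 (chr16:56931892-56932141, plus strand): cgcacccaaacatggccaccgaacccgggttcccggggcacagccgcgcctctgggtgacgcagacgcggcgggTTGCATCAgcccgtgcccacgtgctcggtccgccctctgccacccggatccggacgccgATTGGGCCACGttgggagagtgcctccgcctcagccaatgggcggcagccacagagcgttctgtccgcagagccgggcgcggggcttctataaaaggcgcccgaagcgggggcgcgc
HSPA8 (chr11:123062137-123062386, minus strand): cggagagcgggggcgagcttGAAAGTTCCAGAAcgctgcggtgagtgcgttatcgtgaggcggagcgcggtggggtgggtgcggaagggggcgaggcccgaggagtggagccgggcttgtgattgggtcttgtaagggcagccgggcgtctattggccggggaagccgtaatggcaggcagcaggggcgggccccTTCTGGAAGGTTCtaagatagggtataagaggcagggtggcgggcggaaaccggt

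The motifs were searched on both strands of windows of 300 bases (250 before to 50 after the start) that RefSeq sequences gave for 37 of the 40 members. The ER stress element (ERSE, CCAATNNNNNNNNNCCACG) was found in 6 of 20 ER windows and in 0 of 17 cytosolic windows, against 0.081% of 27305 windows of all genes. The 6 were CALR, CANX, CRELD2, HSP90B1, HSPA5 and XBP1, with a pair of matches in HSP90B1. ERSE-II (ATTGG, any base, CCACG) was found in HERPUD1, HYOU1 and SDF2L1, against 0.055% of all windows. HERPUD1 also held the only member match to the CHOP-ATF4 composite (TGATGNAA), a motif in 3.67% of all windows. The heat shock element, searched as GAANNTTCNNGAA or TTCNNGAANNTTC, was found in HSPA8 and DNAJA1, against 0.487% of all windows. No match says only that these letters were not in the window.

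The libraries held 25572691 to 38373679 estimated counts and were assigned to 1 batch by the labels. TDP1, the check of the genotype label, was at 26.3 ± 1.60 CPM (counts scaled to a common library total, ± SD, n = 3) in untreated WT against 10.8 ± 0.647 in KO (log2 fold change -1.29, adjusted p 1.3e-05), and all 3 KO libraries lay below all 3 untreated WT libraries. Without a change of genotype TDP1 was at 13.96 ± 1.55 CPM in DTC and 26.6 ± 1.54 in DTEC. Markers of epithelial and PC9 cells (EPCAM, KRT7, KRT8, KRT18, KRT19, CDH1 and EGFR) had sums of 12286 to 12938 CPM in untreated WT libraries, 7079.9 to 7787 after 7 days, 10388 to 13016 after 28 days and 12684 to 13434 in KO. The 7 fibroblast markers summed to 8.03 to 8.998 CPM in untreated WT and 55.0 to 57.7 in DTC, nearly all of it COL1A1. They summed to 11.2 to 14.2 CPM in DTEC and 13.4 to 15.1 in KO. COL1A2, COL3A1 and DCN had at most 2 counts in any library, and LUM reached 19 counts in DTC and 0 in untreated WT. The 6 immune markers (mostly CD68, with PTPRC and CD3E at 5 counts or fewer) summed to 27.0 to 33.9 CPM in untreated WT and 38.9 to 55.3 in DTC. Their sums were 35.1 to 41.7 CPM in DTEC and 25.9 to 29.4 in KO. The 4 endothelial markers (mostly PECAM1 and CDH5) summed to 58.5 to 61.4 CPM in untreated WT and 42.1 to 50.1 in DTC. They reached 122 to 142 CPM in DTEC and 75.8 to 77.2 in KO. In DTC the PECAM1 mean was 8.77 CPM, against 32.0 in untreated WT, while VWF and KDR reached 63 and 32 counts. Mitochondrial genes took 2.504% to 2.77% of the counts in untreated WT and 4.43% to 5.41% in DTC. The part of these shifts in the results was not tested. In bulk RNA, fewer cells of a kind and less RNA per cell cannot be told apart.

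In untreated WT the members spanned a wide range of levels per exon length. The cytosolic HSP90 genes stood highest, HSP90AA1 at 1703 ± 160.2 CPM per kb (SD, n = 3) and HSP90AB1 at 1504 ± 127, and their spreads met. HSPA8, the constitutive cytosolic HSP70, followed at 878 ± 43.1 and the mitochondrial chaperonin HSPD1 at 430.4 ± 50.6, which met the spread of CALR (391 ± 11.6). HSPA5 was at 313 ± 16.3 and HSP90B1 at 231 ± 24.2 CPM per kb. The lowest were HSPA2 (1.20 ± 0.101), the small heat shock protein HSPB8 (0.768 ± 0.180) and CRYAB (0.0258 ± 0.0224). The stress-inducible pair HSPA1A and HSPA1B, adjacent genes with nearly the same sequence, were at 203 ± 26.02 and 75.0 ± 12.7 CPM per kb. None of the 12 deposited values of either was exactly a whole number, which estimated counts show where reads match several genes, and the split between them is uncertain. The same held for HSP90AA1, HSPE1, DNAJB11 and PDIA3, while 19 members had exactly whole values, with no tolerance, in all 12 libraries. In between, ATF6 had 11 values that were not whole, HSP90AB1, HSP90B1 and ERN1 had 10 each, and P4HB had 8.

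After 7 days of erlotinib most members of both compartments fell, and a few low-abundance ones rose steeply. Of the 19 cytosolic members, 14 fell and 4 rose in DTC against untreated WT, and of the 21 ER members 14 fell and 2 rose (edgeR quasi-likelihood test, adjusted p under 0.05). Over all tested genes 67.3% were called, 33.3% lower and 34% higher. The median log2 fold change was -0.84 for the cytosolic and -0.47 for the ER members, beside 0.06 for all tested genes. By 2-fold or more, 8 cytosolic members and 1 ER member fell (13.9% of all tested genes), and 4 cytosolic and 2 ER members rose (22.3%). The DTC and untreated WT libraries did not overlap in 18 cytosolic and 14 ER members, beside 68.9% of all tested genes. The fall of the ER members depended on the scaling between libraries. Scaling by total counts, under which the all-gene median rose by 0.35, gave 6 ER members higher and 6 lower, and scaling by the upper quartile 6 higher and 8 lower. The cytosolic split was 5 higher and 12 lower under both.

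**Figure D1:**
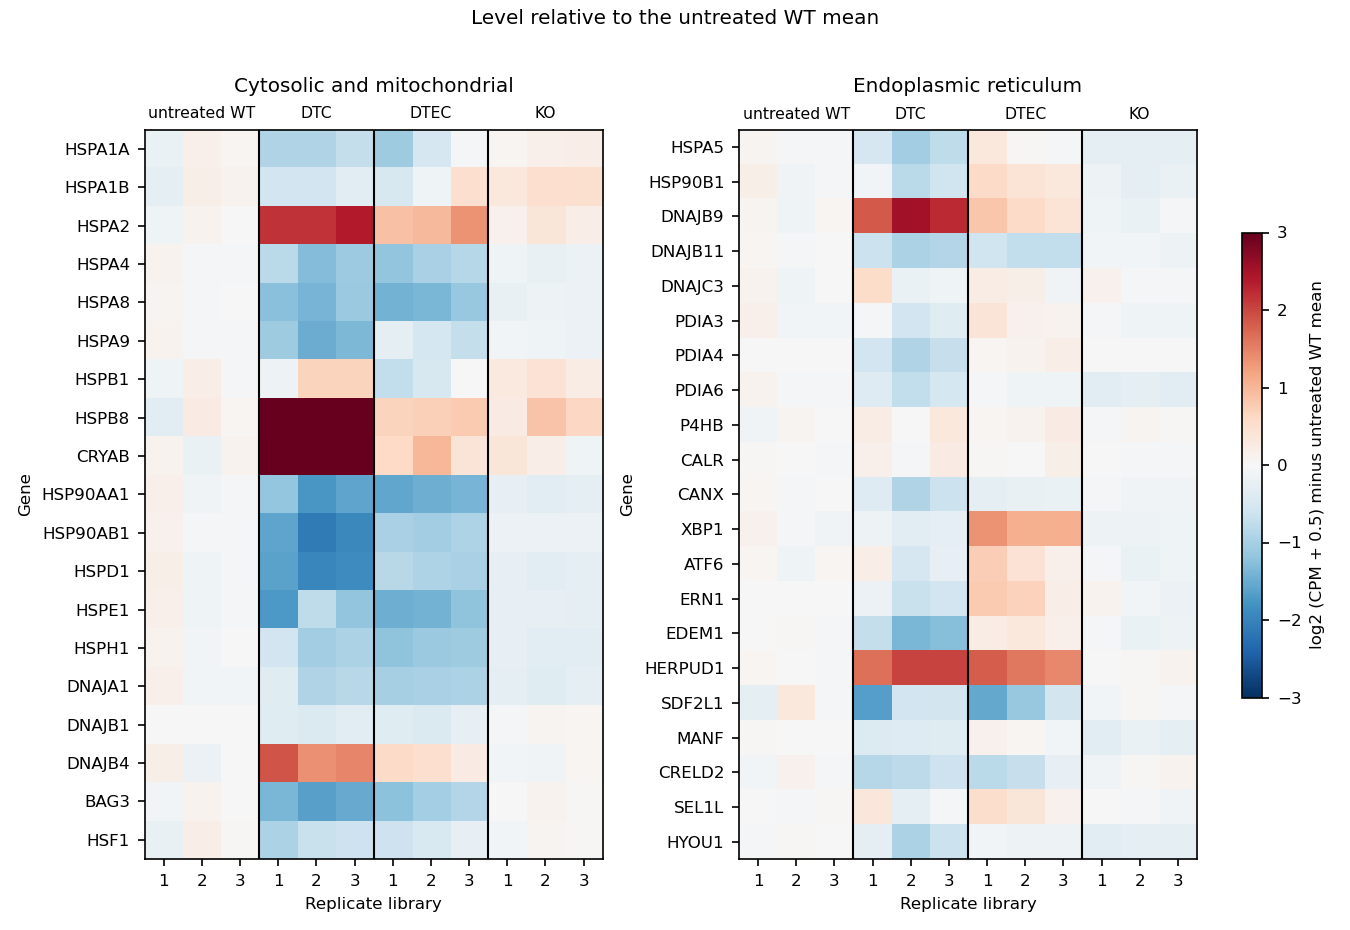
Each cell shows the log2 level (CPM plus 0.5) of a gene in 1 library minus its mean over the untreated WT libraries, with columns for replicates 1 to 3 of each group and colours ending at 3 in either direction. The cytosolic panel is mostly blue in DTC and DTEC, while the ER panel is mostly blue in DTC and near white or red in DTEC. CRYAB and HSPB8 exceed the colour range in DTC or lie near its end.

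Both cytosolic HSP90 genes fell. HSP90AA1 was at 9885, 8286 and 8636 CPM in the 3 untreated WT libraries and at 3999, 2664 and 2969 in DTC (log2 fold change -1.48, SE 0.137, adjusted p 3.22e-07). HSP90AB1, its constitutive partner, was at 4919, 4259.9 and 4267 CPM in untreated WT and 1505, 1024 and 1173 in DTC (log2 fold change -1.86, SE 0.130, adjusted p 1.88e-08). All DTC libraries lay below all untreated WT libraries for both, at 35.9% and 27.5% of the untreated WT mean.

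The HSP70 branch was split. HSPA8 was at 4493, 4088 and 4198 CPM in untreated WT and 1778, 1617 and 1969.9 in DTC (log2 fold change -1.25, SE 0.107, adjusted p 1.45e-07). HSPA4, an exchange factor of the HSP110 type, fell by 1.06 on the log2 scale (adjusted p 3.15e-06) and HSPH1, its relative, by 0.84 (adjusted p 1.68e-05). HSPA1A was at 432, 559 and 518 CPM in untreated WT and 266, 268 and 303 in DTC (log2 fold change -0.85, SE 0.189, adjusted p 0.00122), with no overlap. HSPA1B was at 153, 213 and 202 CPM in untreated WT and 126, 126 and 149 in DTC (log2 fold change -0.50, SE 0.200, adjusted p 0.0384), a call lost in 8 of 13 alternatives (adjusted p 0.000422 to 0.523). Counted as 1 feature, the pair had 692 ± 96.4 CPM (SD, n = 3) in untreated WT and 412 ± 33.9 in DTC (log2 fold change -0.70, adjusted p 0.00588). HSPA2, an HSP70 best known from the testis, moved the other way, from 6.33, 7.49 and 7.04 CPM to 33.1, 33.1 and 38.4 (log2 fold change 2.33, SE 0.139, adjusted p 4.32e-09).

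Mitochondrial chaperones fell with the cytosolic ones. HSPD1 (HSP60) was at 2071, 1667 and 1743 CPM in untreated WT and 595, 471 and 494 in DTC (log2 fold change -1.81, SE 0.116, adjusted p 8.17e-09). HSPE1 (HSP10), the lid of the same chaperonin, was at 385, 317 and 336 CPM in untreated WT and 104, 203 and 152 in DTC (log2 fold change -1.18, SE 0.180, adjusted p 5.12e-05). HSPA9, the HSP70 of the matrix, was at 593, 527 and 541 CPM in untreated WT and 263, 197 and 217 in DTC (log2 fold change -1.29, SE 0.128, adjusted p 5.85e-07). None of the 3 overlapped between the groups.

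J proteins of the cytosol differed among themselves. DNAJA1 fell by 0.68 (adjusted p 0.000346). DNAJB1, the stress-inducible partner of HSPA1A, was at 301, 302 and 304 CPM in untreated WT and 235, 224 and 240.3 in DTC (log2 fold change -0.38, SE 0.0865, adjusted p 0.00146). Its call was lost when libraries were scaled by total counts or by the upper quartile, where its log2 fold changes were -0.02 and -0.09. DNAJB4 rose from 18.9, 14.7 and 16.4 to 62.2, 43.4 and 46.4 CPM (log2 fold change 1.60, SE 0.147, adjusted p 2.83e-07).

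The small heat shock proteins gave the steepest rises. HSPB8 was at 1.64, 2.66 and 2.28 CPM in untreated WT and 35.5, 36.2 and 39.6 in DTC (log2 fold change 4.08, SE 0.188, adjusted p 4.19e-10), a 16.9-fold rise. CRYAB (alpha-B crystallin) had 0 to 4 counts in the untreated WT libraries, or 0.119, 0 and 0.115 CPM, and 5.64, 7.33 and 8.74 CPM in DTC, 167 to 298 counts (log2 fold change 6.41, SE 0.555, adjusted p 1.74e-07, a fitted value that depends on the prior count). HSPB1 (HSP27) was at 164, 206 and 174 CPM in untreated WT and 162, 285 and 289 in DTC, where replicate 1 lay below the whole untreated WT range and the others above it (adjusted p 0.081, called higher in 6 of 13 alternatives). BAG3, the co-chaperone that binds HSPB8 and serves selective autophagy, fell as HSPB8 rose, from 159, 182 and 167 to 65.0, 54.2 and 59.3 CPM (log2 fold change -1.51, SE 0.110, adjusted p 2.66e-08). HSF1 itself was at 162, 218 and 197 CPM in untreated WT and 98.0, 120.4 and 124 in DTC (log2 fold change -0.75, SE 0.133, adjusted p 0.000167).

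In the ER, HSPA5 was at 1298, 1183 and 1192 CPM in untreated WT and 857, 594 and 716 in DTC (log2 fold change -0.76, SE 0.130, adjusted p 0.000128), with no overlap. HSP90B1 was at 1214, 1006 and 1031 CPM in untreated WT and 1013, 619 and 709.8 in DTC (log2 fold change -0.47, SE 0.154, adjusted p 0.0138). DTC replicate 1 lay inside the untreated WT range, and the call was lost in 6 of 13 alternatives (adjusted p 3.45e-05 to 0.506). HYOU1, the ER exchange factor of the HSP110 type, fell by 0.59 (adjusted p 0.00108, lost with total counts alone).

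Among the ER J proteins, DNAJB11 fell from 141, 132 and 133 to 86.8, 69.5 and 73.8 CPM (log2 fold change -0.82, SE 0.0989, adjusted p 4.46e-06). DNAJB9, which binds ERN1 and assists degradation, rose from 10.8, 9.21 and 10.6 to 37.9, 60.4 and 49.99 CPM (log2 fold change 2.28, SE 0.163, adjusted p 2.26e-08). DNAJC3 had a mean of 86.3 ± 7.09 CPM (SD, n = 3) in untreated WT and 92.9 ± 28.3 in DTC and was not called. Of the isomerases, PDIA4 fell by 0.72 (adjusted p 1.35e-05), PDIA6 by 0.54 (adjusted p 0.000283, lost with total counts alone) and PDIA3 by 0.32 (adjusted p 0.0407, lost in 10 of 13 alternatives, range 0.00167 to 0.826). P4HB was at 375 ± 22.2 CPM in untreated WT and 425 ± 45.5 in DTC, and was not called. The lectins parted. CANX fell by 0.63 (adjusted p 0.000234), while CALR was at 1059.9 ± 31.4 CPM in untreated WT and 1161 ± 115 in DTC, not called.

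Members of ER-associated degradation went in opposite directions. HERPUD1, a scaffold of the degradation complex, was at 25.6, 24.2 and 23.9 CPM in untreated WT and 78.2, 102 and 101 in DTC (log2 fold change 1.93, SE 0.126, adjusted p 9.66e-09). EDEM1, a mannosidase that marks glycoproteins for degradation, fell from 42.02, 42.5 and 39.9 to 25.0, 15.8 and 16.8 CPM (log2 fold change -1.11, SE 0.143, adjusted p 8.43e-06). SEL1L, the adaptor of the HRD1 ligase, was at 116 ± 2.53 and 119 ± 26.7 CPM and was not called. The small ER-stress genes SDF2L1, MANF and CRELD2 fell by 0.90, 0.39 and 0.76 (adjusted p 0.0169, 0.0013 and 0.000198). The SDF2L1 call was lost without untreated WT replicate 2 or DTC replicate 1 and, like that of MANF, under either of these scalings.

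The calls of the sensors and of XBP1 at 7 days depended on the processing. XBP1 was at 93.8, 84.2 and 80.1 CPM in untreated WT and 77.0, 67.9 and 71.6 in DTC (log2 fold change -0.25, SE 0.103, adjusted p 0.0421). That call was lost in 11 of 13 alternatives (adjusted p 0.0234 to 0.766), and the sign changed under scaling by total counts or by the upper quartile. ERN1 was at 23.95, 23.7 and 23.3 CPM in untreated WT and 20.9, 14.7 and 15.6 in DTC (log2 fold change -0.47, SE 0.159, adjusted p 0.017, lost in 5 of 13 alternatives, range 0.00148 to 0.531). ATF6 was at 95.4, 83.6 and 94.1 CPM in untreated WT and 104, 63.6 and 76.3 in DTC, which overlapped (adjusted p 0.394). DTC replicate 1 was the highest of the DTC libraries in 14 of 21 ER members. Without it the counts of ER members were again 2 higher and 14 lower, but the SDF2L1 call was lost and ATF6 was called lower, and without DTC replicate 2 they were 4 higher and 10 lower.

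After 28 days most cytosolic members were still below the untreated level, while the ER members were called in both directions. In DTEC against untreated WT, 13 of 19 cytosolic members were lower and 4 higher, and 3 of 21 ER members were lower and 7 higher. Of the 21 ER members 11 were not called, and 47.6% were called in either direction, near the share of all tested genes. Over all tested genes 52.3% were called, 26.3% lower and 26% higher. The median log2 fold change was -0.50 for the cytosolic and 0.13 for the ER members, beside 0.02 for all tested genes. The libraries did not overlap in 16 cytosolic and 14 ER members (62.4% of all tested genes). In this comparison 2 cytosolic and 2 ER members were higher by 2-fold or more (13.2% of all tested genes) and 5 and 1 lower (6.7%). Scaling by total counts, under which the all-gene median rose by 0.17, gave 11 ER members higher and 3 lower, with 4 cytosolic members higher and 10 lower. The ER count of 7 became 4 without untreated WT replicate 2, untreated WT replicate 3, DTEC replicate 1 or DTEC replicate 2.

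**Figure D2:**
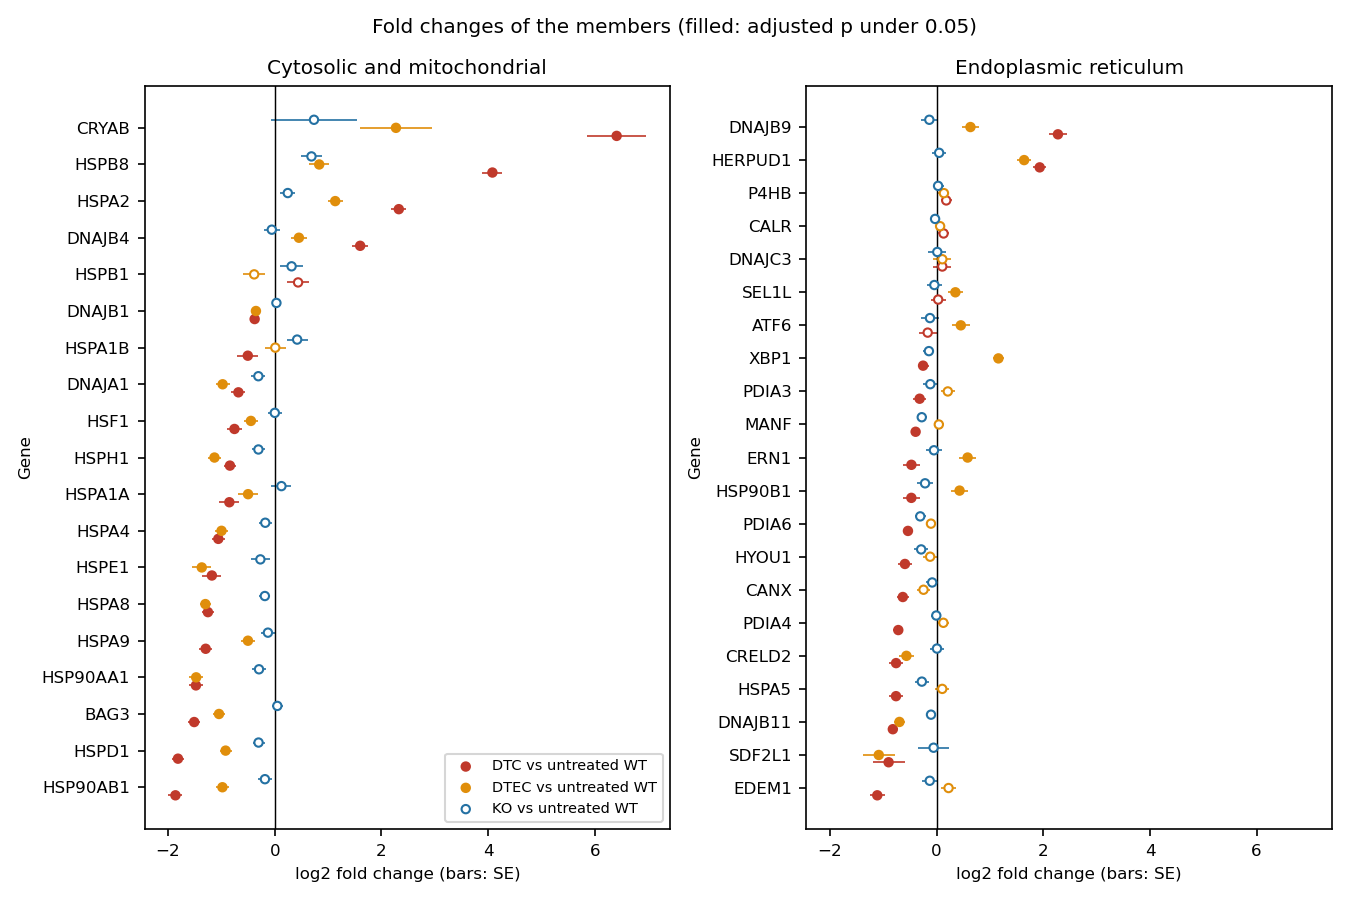
Points are log2 fold changes against untreated WT with SE, for DTC, DTEC and KO, sorted by the value in DTC, and filled points passed an adjusted p of 0.05. Most cytosolic members lie left of 0 in both DTC and DTEC, most ER members lie left in DTC and near or right of 0 in DTEC, and no KO point is filled.

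HSP90AA1 was at 3044, 3226 and 3390.3 CPM in DTEC (log2 fold change -1.47, SE 0.137, adjusted p 9.56e-07) and HSPA8 at 1602, 1650.2 and 1939 CPM (log2 fold change -1.30, SE 0.108, adjusted p 3.11e-07). Both stayed far below the untreated WT libraries and within the range of DTC or close to it. HSP90AB1 was at 2275, 2174 and 2366 CPM (log2 fold change -0.98, SE 0.127, adjusted p 2e-05). HSPD1 was at 1016, 949.6 and 930.3 CPM (log2 fold change -0.92, SE 0.114, adjusted p 1.27e-05). All DTEC libraries lay below untreated WT and above DTC for both. HSPE1 (log2 change -1.37, adjusted p 2.7e-05), HSPH1 (log2 change -1.13, adjusted p 2.46e-06), BAG3 (log2 change -1.04, adjusted p 2.58e-06), HSPA4 (log2 change -0.997, adjusted p 1.25e-05), DNAJA1 (log2 change -0.98, adjusted p 2.72e-05) and HSPA9 (log2 change -0.50, adjusted p 0.00405) were also lower. HSF1 was at 124, 139 and 162 CPM (log2 fold change -0.45, SE 0.132, adjusted p 0.0113), a call lost in 5 of 13 alternatives (adjusted p 0.00141 to 0.0961).

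HSPA1A spread widely in DTEC, at 238, 351 and 478 CPM in replicates 1 to 3, and replicate 3 lay inside the untreated WT range (log2 fold change -0.50, SE 0.188, adjusted p 0.0386, lost in 8 of 13 alternatives, range 0.00149 to 0.194). HSPA1B was at 135, 171 and 266 CPM, spread around the untreated WT values (adjusted p 0.97). As 1 feature the pair was not called (log2 fold change -0.32, adjusted p 0.193). The 4 members that rose at 7 days were also called higher at 28 days. HSPB8 was at 3.75, 3.90 and 4.07 CPM (log2 fold change 0.83, SE 0.190, adjusted p 0.00202). HSPA2 was at 13.2, 14.2 and 18.3 CPM (log2 fold change 1.13, SE 0.137, adjusted p 1.06e-05). CRYAB was at 0.365, 0.649 and 0.247 CPM, or 9 to 17 counts a library (log2 fold change 2.27, SE 0.675, adjusted p 0.0114), and DNAJB4 at 24.8, 23.9 and 19.9 CPM (log2 fold change 0.45, adjusted p 0.0177, lost in 3 of 13 alternatives).

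The ER members called higher included the stress transducers. XBP1 was at 218, 179 and 179 CPM in DTEC (log2 fold change 1.16, SE 0.104, adjusted p 6.82e-07), 2.23-fold above untreated WT with no overlap. ERN1 was at 40.8, 38.3 and 27.2 CPM (log2 fold change 0.58, SE 0.157, adjusted p 0.0065). ATF6 was at 151, 123 and 100.5 CPM (log2 fold change 0.45, SE 0.167, adjusted p 0.0344). All DTEC libraries lay above untreated WT for both, but the ATF6 call was lost in 5 of 13 alternatives, each of them leaving out 1 library (range of adjusted p 0.00257 to 0.157). HERPUD1 was at 88.3, 74.3 and 67.2 CPM (log2 fold change 1.64, SE 0.126, adjusted p 1.6e-07). DNAJB9 was at 18.4, 15.4 and 13.8 CPM (log2 fold change 0.63, SE 0.160, adjusted p 0.00418).

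HSP90B1 was at 1598, 1435 and 1349 CPM (log2 fold change 0.43, SE 0.153, adjusted p 0.0291, lost when replicate 2 or 3 of untreated WT, or 1 or 2 of DTEC, was left out, range 0.00214 to 0.103). SEL1L was called higher (log2 change 0.35, adjusted p 0.0472, lost in 5 of 13 alternatives, range 0.00652 to 0.173). HSPA5 was at 1514, 1254 and 1186 CPM, overlapping untreated WT (adjusted p 0.512), and the isomerases PDIA3, PDIA4, PDIA6 and P4HB, the lectins CALR and CANX, and DNAJC3, EDEM1, MANF and HYOU1 were not called. The ER members called lower were SDF2L1 at 4.32, 5.77 and 9.01 CPM (log2 change -1.08, adjusted p 0.00866), DNAJB11 at 89.6, 80.6 and 80.4 CPM (log2 change -0.70, adjusted p 4.38e-05) and CRELD2 at 28.8, 31.3 and 42.9 CPM (log2 change -0.57, adjusted p 0.00299).

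Ratios of counts within a library need no scaling between libraries. The summed cytosolic members were 3.04 ± 0.0926 times the summed ER members (SD, n = 3) in untreated WT, 1.53 ± 0.0424 times after 7 days, 1.28 ± 0.119 times after 28 days and 2.90 ± 0.0198 times in KO. The cytosolic members took 2.08% ± 0.125 of all counts in untreated WT, 1.03% ± 0.125 after 7 days, 1.06% ± 0.0617 after 28 days and 1.88% ± 0.0179 in KO. The ER members took 0.682% ± 0.0202, 0.675% ± 0.0973, 0.825% ± 0.0318 and 0.650% ± 0.0104. Between counterparts, the ratio of HSPA8 to HSPA5 counts was 3.48 ± 0.0366 in untreated WT, 2.51 ± 0.382 in DTC and 1.34 ± 0.289 in DTEC, and that of HSP90AA1 to HSP90B1 was 8.25 ± 0.118, 4.15 ± 0.182 and 2.22 ± 0.305. In each of the 3 ratios the untreated WT, DTC and DTEC libraries did not overlap. Both pairs use a cytosolic gene that was not called between 7 and 28 days. HSP90AB1, the other cytosolic HSP90 gene, was higher at 28 than at 7 days by 0.88 on the log2 scale, beside 0.90 for HSP90B1. No ratio was taken for that pair. The most abundant genes weigh most in the sums, and the ratios are given as a description with no test.

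**Figure D3:**
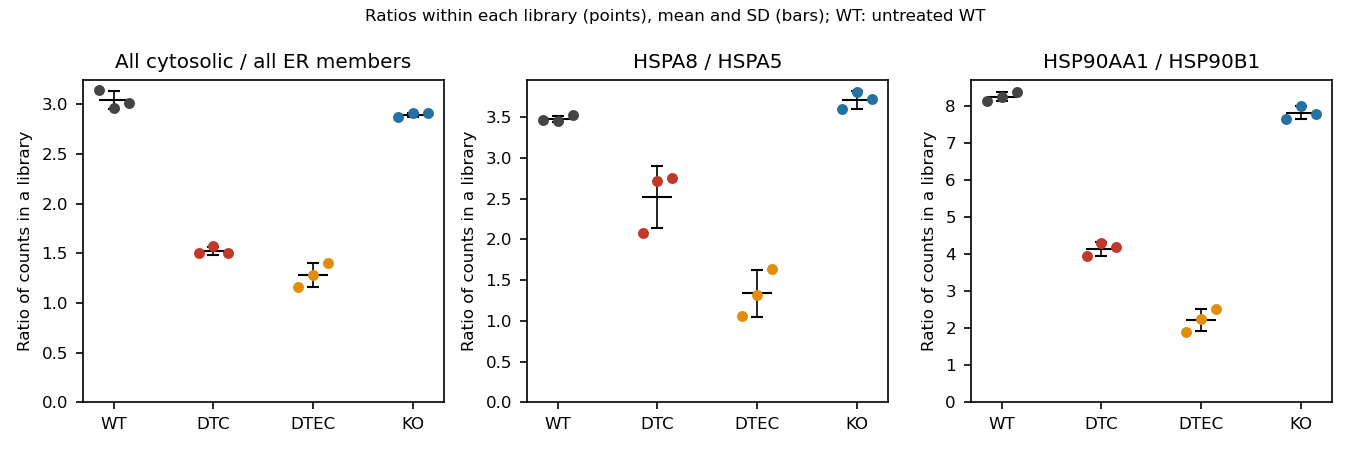
Each point is the ratio of counts within 1 library, with the mean and SD of 3 libraries as bars, and the axes start at 0. The ratio of all cytosolic to all ER members falls from 3.04 ± 0.0926 in untreated WT to 1.28 ± 0.119 in DTEC, and the same order holds for HSPA8 over HSPA5 and HSP90AA1 over HSP90B1. HSP90AB1, not paired here, was higher in DTEC than in DTC, as was HSP90B1.

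The direct comparison of DTEC with DTC tested how the members differed between 28 and 7 days. Of the 21 ER members 12 were higher and 1 lower in DTEC, and of the 19 cytosolic members 5 were higher and 6 lower. Over all tested genes 55.4% were called, 28.8% higher and 26.6% lower. The median log2 difference was 0.43 for the ER and 0.004 for the cytosolic members, beside -0.01 for all tested genes. The libraries of the groups did not overlap in 12 ER and 10 cytosolic members, beside 56.7% of all tested genes. By 2-fold or more, 3 ER and 0 cytosolic members were higher (8.1% of all tested genes), and 1 ER and 4 cytosolic members lower (14.3%). Scaling by total counts, under which the all-gene median fell by 0.19, gave 10 ER members higher and 3 lower, and 4 cytosolic members higher and 7 lower.

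The ER members higher at 28 days were led by XBP1 (log2 fold change 1.41, SE 0.105, adjusted p 8.88e-08), EDEM1 (log2 fold change 1.34, SE 0.143, adjusted p 3.11e-06) and ERN1 (log2 fold change 1.05, SE 0.160, adjusted p 7.32e-05). HSP90B1 differed by 0.90 (adjusted p 0.000205), HSPA5 by 0.87 (adjusted p 6.88e-05) and PDIA4 by 0.85 (adjusted p 5.81e-06). ATF6, PDIA3, PDIA6, MANF, HYOU1 and CANX made up the 12, with log2 differences of 0.39 to 0.62. The calls of CANX and HYOU1 were lost in 7 and 2 of 13 alternatives, and those of the other ten in none. DNAJB9 was the ER member that was lower at 28 days (log2 fold change -1.64, SE 0.158, adjusted p 1.08e-06). HERPUD1 averaged 93.8 ± 13.5 CPM (SD, n = 3) in DTC and 76.6 ± 10.8 in DTEC and was not called (adjusted p 0.0536), though it was called lower in 6 of 13 alternatives.

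The cytosolic members that had risen at 7 days were all lower at 28 than at 7 days. Both comparisons use the DTC libraries, so for members grouped by their call at 7 days these tests are not independent of that call. CRYAB differed by -4.14 (adjusted p 3.81e-06), HSPB8 by -3.25 (adjusted p 4.57e-09), HSPA2 by -1.19 (adjusted p 4.16e-06) and DNAJB4 by -1.15 (adjusted p 1.42e-05). HSPB1 was lower as well (log2 change -0.82, adjusted p 0.00494), although DTEC replicate 3 (178 CPM) lay above DTC replicate 1 (162 CPM). HSPH1 was lower by a margin lost in 5 of 13 alternatives (log2 change -0.29, adjusted p 0.0454). Of the members that had fallen, HSPD1 (log2 change 0.89, adjusted p 1.53e-05), HSP90AB1 (log2 change 0.88, adjusted p 4.82e-05), HSPA9 (log2 change 0.79, adjusted p 0.000115) and BAG3 (log2 change 0.47, adjusted p 0.00224) were higher at 28 days. HSPA1B was also called (log2 change 0.52, adjusted p 0.0421), which was lost in 9 of 13 alternatives and in the sum with HSPA1A (adjusted p 0.11). HSP90AA1, HSPA8, HSPA4 and DNAJB1 were not called under any alternative, with means of 3211 and 3220.1 CPM for HSP90AA1 and 1788 and 1730.4 CPM for HSPA8 in DTC and DTEC.

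**Figure D4:**
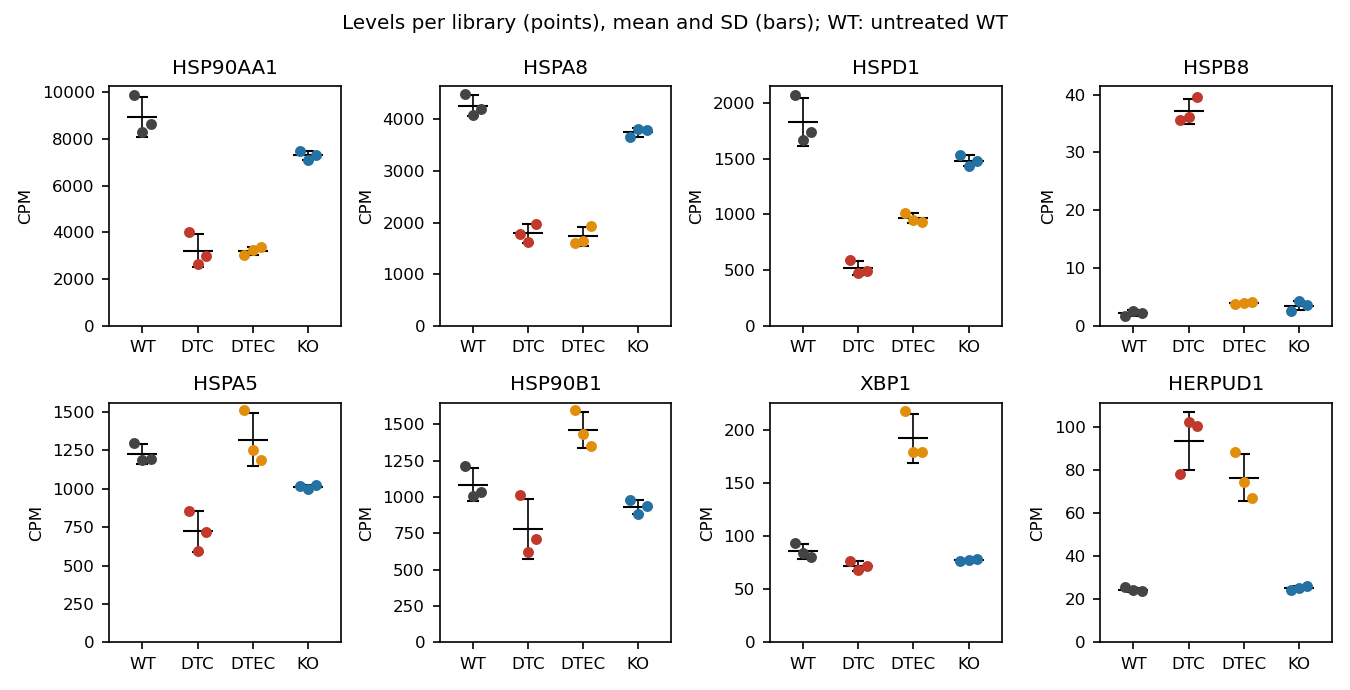
Levels in CPM of 8 members in each library, with the mean and SD of 3 libraries as bars and axes from 0. HSP90AA1 and HSPA8 lie below untreated WT in all DTC and DTEC libraries, HSPA5, HSP90B1 and XBP1 are higher in DTEC than in DTC, HSPB8 peaks in DTC, and HERPUD1 is high in both.

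Side by side over the 3 comparisons, the 40 members were sorted by their pattern of calls, and only some of the patterns are given here. Each pair of these comparisons shares a group of libraries (untreated WT, DTC or DTEC), so the calls are not independent of each other. In the cytosol, 8 members were lower at both times with no call between them (9% of all tested genes), 4 were lower at both times but higher at 28 than at 7 days (8.96%), and 4 were higher at both times but lower at 28 than at 7 days (6.93%). In the ER, 8 members were lower at 7 days, not called at 28 days and higher at 28 than at 7 days (9.68% of all tested genes), and 3 (HSP90B1, XBP1 and ERN1) were lower at 7 days and higher at 28 days than untreated WT (2.45%). HERPUD1 was higher at both times with no call between them (8.85%), and DNAJB11, SDF2L1 and CRELD2 were lower at both times with none between them.

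In untreated KO cells no member was called against untreated WT, where 4.31% of all tested genes were called, 2.76% higher and 1.55% lower, with 0.964% higher and 0.339% lower by 2-fold or more. The edgeR quasi-likelihood test gave 8 of 40 members an unadjusted p under 0.05, 5 cytosolic and 3 ER, beside 16.6% of all tested genes. DESeq2 called 2 members, HSPB8 and MANF, and its share over all genes is not given here. The log2 fold changes ran from -0.31 to 0.74 in the cytosol, the highest being that of CRYAB at 1 to 7 counts a library, and from -0.31 to 0.05 in the ER, with medians of -0.05 and -0.10 beside -0.01 for all tested genes. HSPB8 came nearest to a call, at 2.63, 4.34 and 3.59 CPM against 1.64, 2.66 and 2.28 (log2 fold change 0.69, SE 0.191, adjusted p 0.0591), and was called in 6 of 13 alternatives (adjusted p 0.00655 to 0.269). HSPA1A was at 518, 556 and 573 CPM (log2 change 0.13, adjusted p 0.794) and HSPA1B at 233, 264 and 262 CPM (log2 change 0.42, adjusted p 0.312), while HSPA5 was at 1015, 998 and 1021 CPM (log2 change -0.28, adjusted p 0.302). HSF1 (0.0019), XBP1 (-0.14), ATF6 (-0.12) and ERN1 (-0.05) had adjusted p of 0.533 to 1.

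The libraries of KO and untreated WT did not overlap in 19 of the 40 members, beside 35.7% of all tested genes. In a fit of KO and untreated WT without the treated groups, 11 members were called. HSPB1 was higher (0.34, adjusted p 0.0386), while HSP90AA1, HSPA8, HSPD1, HSPE1, HSPH1 and DNAJA1 in the cytosol and HSPA5, PDIA6, MANF and HYOU1 in the ER were lower, by 0.16 to 0.28 on the log2 scale (adjusted p 0.00244 to 0.0455 over the 11). In that fit 2656 of all tested genes were called, where the fit of all 12 libraries called 738.

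Other chaperones, from lists written from general knowledge, were tested in the same fit. For their counts in this fit the shares of all tested genes were 34% higher and 33.3% lower in DTC, and 26% and 26.3% in DTEC. Under scaling by total counts those shares are not given, and the all-gene median log2 fold change was 0.41 in DTC and 0.19 in DTEC. The list splits under that scaling carry the same upward shift. All 8 subunits of the CCT chaperonin, which folds actin and tubulin, fell in DTC by at least 2-fold (median log2 fold change -1.24). At that size 13.9% of all tested genes were lower in DTC. All 8 were also called lower in DTEC (median -1.11). CCT6A had a mean of 2158 ± 145 CPM (SD, n = 3) in untreated WT, 676 ± 53.5 after 7 days and 899 ± 34.4 after 28 days, and was at 1564 ± 33.9 CPM in KO (log2 change -0.46, adjusted p 0.0119, a call lost when any of the 6 libraries was left out). Of 26 tested cytosolic chaperones and co-chaperones, 17 fell and 4 rose in DTC, and 19 were lower and 2 higher in DTEC. Under scaling by total counts 14 were lower and 8 higher in DTC, and 16 and 3 in DTEC. The HSP90 co-chaperones FKBP4 (log2 change -2.08, adjusted p 4.6e-10) and STIP1 (log2 change -1.78, adjusted p 1.28e-08) fell in DTC, and the J protein DNAJB2 rose to 121 ± 7.47 CPM from 22.6 ± 0.865 in untreated WT (log2 change 2.43, adjusted p 8.6e-10). HSPA4L had its lowest mean in DTEC (83.3 CPM in untreated WT, 21.4 in DTEC, log2 change -1.96, adjusted p 5.95e-08). CHORDC1, an HSP90 co-chaperone, was lower in DTC, DTEC and KO (log2 change -0.65, adjusted p 0.00183 in KO).

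Of 9 mitochondrial chaperones and proteases, 8 fell and none rose in DTC, and 6 were lower and none higher in DTEC. Under scaling by total counts 7 were lower and 1 higher in DTC, and 6 and 1 in DTEC. TRAP1, the mitochondrial HSP90, fell from 321 ± 11.3 CPM to 62.3 ± 1.49 in DTC (log2 change -2.37, adjusted p 1.23e-10) and was at 178 ± 15.0 in DTEC, higher than in DTC (log2 change 1.51, adjusted p 1.11e-08).

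Genes listed under the PERK and ATF4 branch of the unfolded protein response, which slows translation and raises amino acid genes, differed between the times. Of these 14 genes, 7 rose and 6 fell in DTC, and 12 were higher and 0 lower in DTEC (median log2 fold changes 0.27 and 1.26). The activity of PERK was not measured, and its part in these changes was not tested. The transcription factor ATF3 peaked in DTC, with 1.82 ± 0.204 CPM in untreated WT, 43.8 ± 4.57 after 7 days and 7.59 ± 2.78 after 28 days. ASNS, which makes asparagine, climbed further, from 21.3 ± 1.38 to 72.9 ± 5.49 and 232 ± 45.0 CPM, and in KO it was called lower (log2 change -0.57, adjusted p 0.0241), a call lost when any of the 6 KO and untreated WT libraries was left out. CHAC1 was high at both times (log2 change 2.53, adjusted p 8.88e-09 in DTC and log2 change 2.70, adjusted p 2.31e-08 in DTEC). PHGDH, the first enzyme of serine synthesis, averaged 185 CPM in untreated WT, 137 in DTC and 593 in DTEC, higher in DTEC than in DTC (log2 change 2.12, adjusted p 7.14e-10). TRIB3, a pseudokinase, averaged 89.6, 55.9 and 209 CPM (log2 change 1.90, adjusted p 1.61e-07 in DTEC against DTC). Under scaling by total counts the list split was 8 higher and 2 lower in DTC and 13 and 0 in DTEC.

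Of 27 other tested genes of ER folding, export and degradation, 11 rose and 8 fell in DTC, and 11 were higher and 1 lower in DTEC. In all, 70.4% of them were called in DTC and 44.4% in DTEC, beside 67.3% and 52.3% of all tested genes, which is near or below the background. Under scaling by total counts 14 were higher and 2 lower in DTC, and 13 and 0 in DTEC, where the all-gene medians were 0.41 and 0.19. The COPII coat gene SEC24D rose at both times (log2 change 1.399, adjusted p 5.06e-07 in DTC and log2 change 1.28, adjusted p 3.19e-06 in DTEC). CREB3L2, an ER-bound transcription factor, had 53.8 ± 1.11 CPM in untreated WT, 52.2 ± 18.2 after 7 days and 145 ± 7.497 after 28 days (log2 change 1.43, adjusted p 1.11e-05), and ATF6B was higher in DTEC (log2 change 0.83, adjusted p 5.93e-06). TXNDC5, a disulfide isomerase, fell in DTC (log2 change -1.08, adjusted p 2.56e-07) and was lower in DTEC by 0.37 (adjusted p 0.00524). In KO none of these ER genes was called by edgeR, with 2 at an unadjusted p under 0.05.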

How the data were processed

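Polyadenylated RNA was sequenced as 101 bp pairs with a stranded kit, per the labels' protocols. The authors deposited expected counts (estimated reads per gene, not scaled to depth), and the submitters' processing notes name RSEM 1.3.1, Bowtie2 2.5.2, DESeq2 1.40.2 and GRCh38. The annotation release is not given in the sources used here. Coordinates and union exon lengths came from GENCODE 29 (GRCh38), promoters from RefSeq GRCh38.p14.

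Counts were rounded and fitted in R 4.3.3 with edgeR 4.0.16: filterByExpr by group, TMM scaling, all 12 libraries with 1 mean per group, robust quasi-likelihood F tests, and Benjamini-Hochberg adjustment over 17115 genes. Called, rose and fell mean an adjusted p under 0.05. CPM uses TMM-scaled totals, and SE is that of the log2 fold change. Alternatives were other scalings, no filter, DESeq2 1.42.0, the compared groups alone, a replicate block and leaving out each library.

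Named were up to 5 rising and 5 falling members per compartment, the stress sensors, and up to 3 called genes per further list (mean CPM at least 1), with the remaining members added for completeness after their values were seen. Members and lists were chosen with earlier results of these data known.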

Additional observations from a re-analysis of the deposited data

Results flagged for a closer look

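For 3 ER members the difference from untreated WT had opposite signs at 7 and 28 days, each of them called. The members were picked for those calls, which fix the sign of the gap between the times, so that gap is given as a description with no test. XBP1 had a log2 fold change of -0.25 at 7 days and 1.16 at 28 days, a gap of 1.41. ERN1 had -0.47 and 0.58, a gap of 1.05. HSP90B1 had -0.47 and 0.43, a gap of 0.90. The same pattern of calls was seen in 2.45% of all tested genes. The fall at 7 days was lost in 11 of 13 alternatives for XBP1, 5 for ERN1 and 6 for HSP90B1, and the rise at 28 days in 4 for HSP90B1 and in none for XBP1 and ERN1.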

How the results depend on the processing

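Scaling moved the medians of the compartments. In DTC against untreated WT the cytosolic median was -0.79 with DESeq2 size factors, -0.48 under total counts and -0.55 under the upper quartile, and the ER median -0.12 and -0.19 under the last pair, with 6 ER members called higher under each and 6 and 8 lower. In DTEC against untreated WT, total counts alone gave medians of -0.33 (cytosolic) and 0.30 (ER), the upper quartile an ER median of 0.24, both with 11 ER members higher, and the compared groups alone a cytosolic median of -0.68. In DTEC against DTC the medians were -0.18 and 0.24 by total counts and -0.17 and 0.26 with the upper quartile (cytosolic first), with 3 ER members lower under both and 2 with DESeq2 or its size factors. In KO total counts alone gave medians of 0.015 and -0.035. The causes were not tested.

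At 2-fold or more, 8 cytosolic and 1 ER member were lower in DTC, 5 and 1 were lower and 2 and 2 higher in DTEC, and 0 cytosolic and 3 ER members were higher in DTEC than in DTC. KO calls over all genes were 1147 with no filter, 2656 with the compared groups alone and 321 to 426 without single libraries. KO members called higher in the cytosol numbered 1 with total counts alone, DESeq2, the replicate block or the compared groups alone, 2 with no filter and 0 to 1 without single libraries. Called lower were 6 cytosolic and 4 ER members with the compared groups alone and 1 ER member with DESeq2.

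Among the named values, which leave out most members not called in a comparison, signs changed for XBP1 in DTC (0.10 and 0.035 with total counts and upper quartile), ATF6 in DTC (0.19 and 0.12, and -0.34 to 0.043 without single libraries), PDIA3 in DTC (0.038 with total counts), ERN1 in KO (0.020 with total counts, -0.109 to 0.034 without single libraries), HSF1 in KO (-0.091 to 0.12 without single libraries), TDP1 in DTEC (-0.00997 to 0.0853 without single libraries) and HSPA1B in DTEC (-0.32 summed with HSPA1A, -0.31 to 0.23 without single libraries).

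Without single libraries the medians ran from -0.837 to -0.734 (cytosolic, DTC), -0.779 to -0.474 (cytosolic, DTEC), 0.282 to 0.496 (ER, DTEC against DTC), -0.115 to -0.017 (cytosolic, KO) and -0.109 to -0.052 (ER, KO). ER members called higher numbered 2 to 4 in DTC and 4 to 7 in DTEC, and ER members lower in DTEC than in DTC 1 to 2.

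Replicate numbers were not taken as pairs. Same-numbered libraries correlated by -0.01 to 0.18 in their deviations from the group means. Replicate 1 was closest to its own number in every comparison. All replicates were so in KO against untreated WT, while in the other comparisons replicates 2 and 3 were so in some cases only. With the replicate block HSPA1B in DTEC was -0.018, and of 150 named values 147 kept their sign and side of the threshold. Depth limits CRYAB, with at most 17 counts in any library outside DTC.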
